A study of Rattus norvegicus with 256 samples.

Results

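The gastrocnemius and the soleus are the 2 skeletal muscles among 31 organs that were profiled in rats, and their arrays were set here against those of the other 29 organs. An array was taken as a muscle array where its title and tissue label name the gastrocnemius or the soleus. That gave 14 arrays, beside 242 of the other organs, with 6 of the gastrocnemius from 2 males and 4 females and 8 of the soleus from 3 males and 5 females. All animals were untreated Han Wistar-derived rats of 1 strain (AlpkHsdBrlHan:WIST), killed by halothane inhalation, and their age is not given in the sources used here. The RNA of 1 organ of 1 animal went on each RAE230_2 array, which holds 31042 probesets, and 6 animals gave both muscles. Values are on the log2 scale, so that a difference of 1 is a doubling. Arrays of 1 muscle correlated at 0.971 to 0.988 in the gastrocnemius and 0.97 to 0.9891 in the soleus over all probesets. The medians of the muscle arrays, 3.93 to 4.04, lay inside the range of 3.86 to 4.45 seen in the other organs. By the sex-linked genes Xist and Eif2s3y, 3 male arrays of other organs (aorta male 3, heart male 5 and bone marrow male 5) lay nearer the female arrays, and bone marrow female 2 carried both genes, at 9.20 and 8.43. None of the 14 muscle arrays lay nearer the other sex.

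Skeletal muscle shortens when myosin heads in the thick filament pull on the actin of the thin filament, and both are anchored in repeating sarcomeres between Z discs. Calcium released from the sarcoplasmic reticulum starts each contraction by binding troponin, and it is pumped back to end it. Fibres come in slow types, which burn fat and sugar in mitochondria and resist fatigue, and in fast types, which rely more on glycolysis. The gastrocnemius of the rat is a mixed muscle with mostly fast fibres, and the soleus is a postural muscle with mostly slow ones. Each type builds its sarcomere from its own copies of the myosin, troponin and tropomyosin genes. Levels of different probesets cannot be compared with each other, so every comparison is between organs for 1 probeset.

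The labels were checked against a pair of muscle genes. Ckm encodes the muscle form of creatine kinase, which renews ATP from creatine phosphate, and its probeset read 14.48 at the lowest, 14.59 at the median and 14.78 at the highest in the 6 gastrocnemius arrays. In the 8 soleus arrays it read 13.88, 13.98 and 14.36. Mylpf, named Myl11 in the current annotation, encodes the regulatory light chain of fast myosin. Its probeset read 14.57, 14.70 and 14.90 in the gastrocnemius and 12.43, 13.19 and 14.01 in the soleus. Both genes were thus high in all 14 muscle arrays, with the gastrocnemius arrays above all soleus arrays for either gene. The muscles exceeded the mean of the other organs by 9.87 ± 0.25 (SE) for Ckm and by 10.49 ± 0.30 for Mylpf.

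Neither gene was particular to the labelled muscles. The skin arrays held Ckm at 13.38 to 14.17 (n = 9), the thyroid arrays at 11.40 to 13.90 (n = 10) and the heart arrays at 12.14 to 13.36 (n = 7). Mylpf reached 14.13 to 14.53 in the skin and 11.82 to 14.39 in the thyroid, while the median heart array was at 2.19. The muscles stood 0.54 ± 0.39 above the skin in Ckm and 0.41 ± 0.47 below it in Mylpf, and neither passed the test against the highest organ (adjusted p = 1 for both, limma). Single arrays elsewhere also carried Mylpf, with 9.89 in the aorta of male 5 and 8.40 in the adipose of male 2. What put these genes into skin and thyroid arrays was not tested, so the comparisons with the highest organ are given also without those organs. In whole pieces of an organ, fewer cells of a type and less RNA per cell cannot be told apart.

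**Figure D1:**
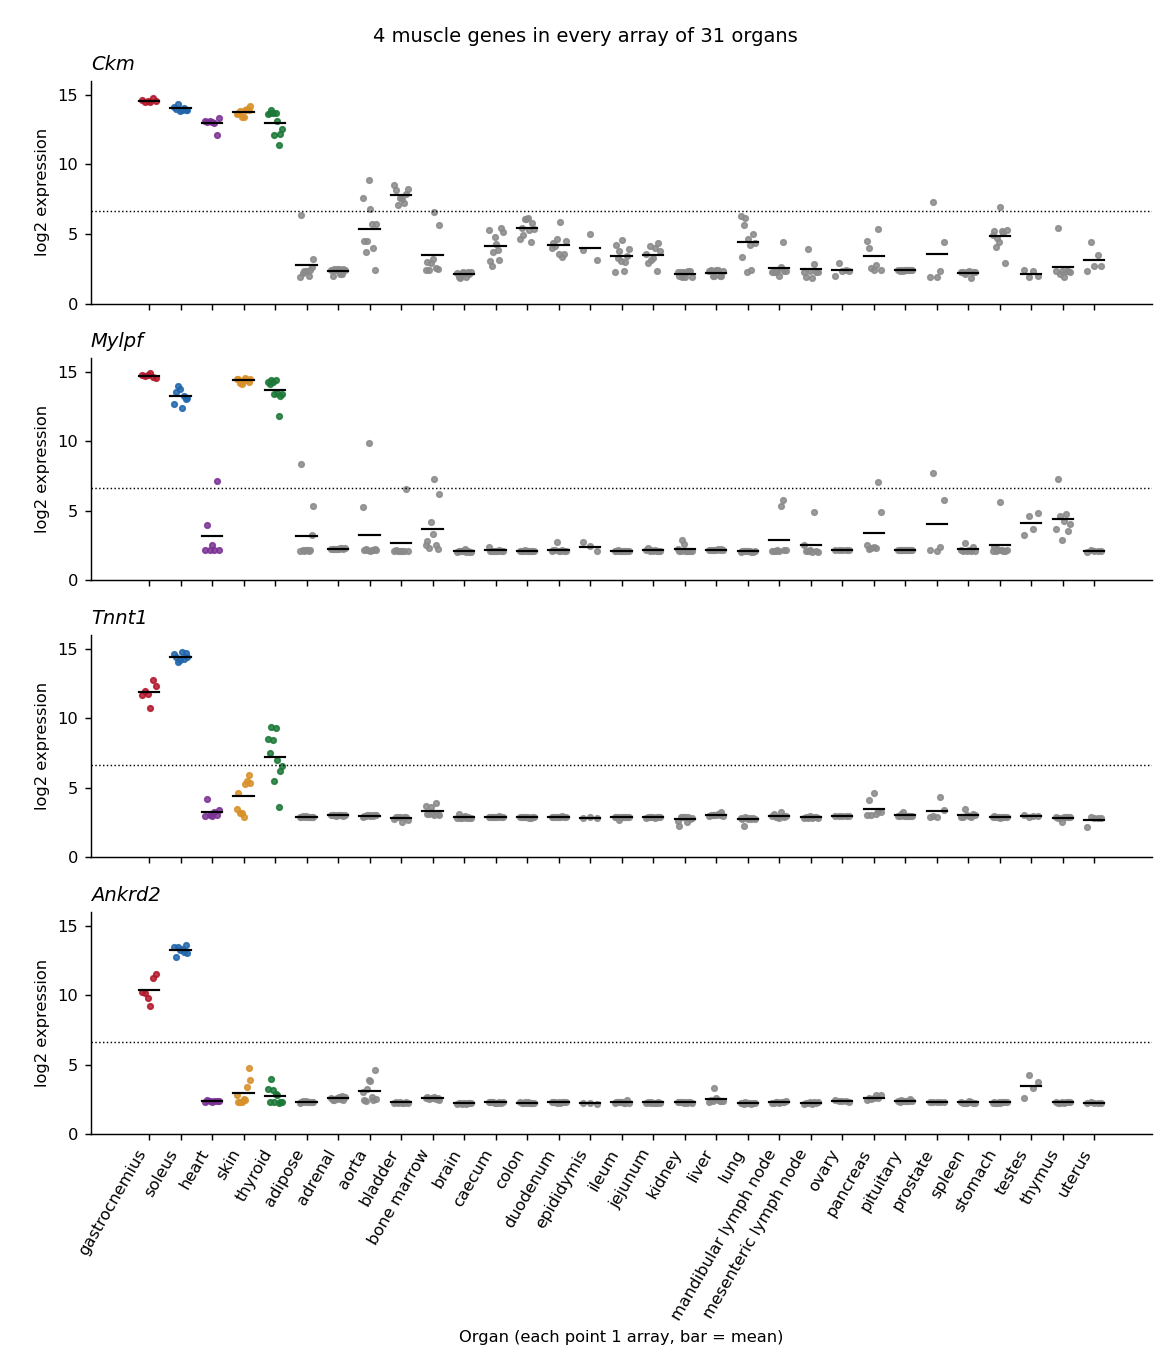
log2 expression of Ckm, Mylpf, Tnnt1 and Ankrd2 in every array, by organ; points are arrays, black bars organ means, and the dotted line the expression threshold of the methods. Ckm and Mylpf are high in muscle, skin and thyroid, Tnnt1 reaches 7.19 on average in the thyroid, and no array outside the muscles exceeds 4.78 for Ankrd2.

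Upstream sequence is shown for these 2 marker genes and for the first genes of the comparison with the highest organ, described below, as far as the collection holds them, whether or not they carry a motif. Each line gives the 250 bases before the annotated start of the gene on its own strand, from RefSeq on build GRCr8. The stretches lie at chr1:88189211-88189460 (Ckm), chr1:191260039-191260288 (Mylpf), chr1:250796169-250796418 (Ankrd2), chr2:177814633-177814882 (Tpm3), chr20:31951994-31952243 (Vgll2), chr1:78348785-78349034 (Tnnt1) and chr13:49781279-49781528 (Tnni1), all on the plus strand. Capitals mark the E-box CAGCTG, a core bound by muscle regulatory factors of the MyoD family, and the letters TATAA.
Ckm: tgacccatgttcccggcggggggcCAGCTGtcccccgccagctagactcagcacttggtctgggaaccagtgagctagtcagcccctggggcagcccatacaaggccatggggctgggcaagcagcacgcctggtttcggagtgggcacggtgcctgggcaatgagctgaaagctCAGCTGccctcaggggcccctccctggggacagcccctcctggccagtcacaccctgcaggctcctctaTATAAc
Mylpf: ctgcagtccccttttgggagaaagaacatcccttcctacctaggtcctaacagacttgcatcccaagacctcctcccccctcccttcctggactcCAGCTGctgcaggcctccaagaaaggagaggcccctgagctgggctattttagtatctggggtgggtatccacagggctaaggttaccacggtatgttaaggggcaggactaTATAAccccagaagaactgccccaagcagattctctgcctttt
Ankrd2: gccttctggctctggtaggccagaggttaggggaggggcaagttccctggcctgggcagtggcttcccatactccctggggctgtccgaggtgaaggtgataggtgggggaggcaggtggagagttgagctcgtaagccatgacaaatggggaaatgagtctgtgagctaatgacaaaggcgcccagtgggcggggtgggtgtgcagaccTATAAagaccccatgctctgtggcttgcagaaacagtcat
Tpm3: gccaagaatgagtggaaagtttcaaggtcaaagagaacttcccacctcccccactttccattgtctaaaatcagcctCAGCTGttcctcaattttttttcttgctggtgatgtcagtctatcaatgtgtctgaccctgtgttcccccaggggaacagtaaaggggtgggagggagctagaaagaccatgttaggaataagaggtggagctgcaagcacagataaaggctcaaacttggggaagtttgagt
Vgll2: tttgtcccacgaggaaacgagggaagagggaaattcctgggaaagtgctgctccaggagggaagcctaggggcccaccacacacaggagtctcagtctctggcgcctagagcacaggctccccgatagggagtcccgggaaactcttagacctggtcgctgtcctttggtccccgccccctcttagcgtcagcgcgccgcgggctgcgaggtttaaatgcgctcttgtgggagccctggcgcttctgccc
Tnnt1: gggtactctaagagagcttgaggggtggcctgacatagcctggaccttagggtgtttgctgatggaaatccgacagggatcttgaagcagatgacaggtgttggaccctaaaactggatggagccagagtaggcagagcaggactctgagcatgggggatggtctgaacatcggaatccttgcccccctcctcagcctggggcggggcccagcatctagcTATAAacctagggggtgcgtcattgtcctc
Tnni1: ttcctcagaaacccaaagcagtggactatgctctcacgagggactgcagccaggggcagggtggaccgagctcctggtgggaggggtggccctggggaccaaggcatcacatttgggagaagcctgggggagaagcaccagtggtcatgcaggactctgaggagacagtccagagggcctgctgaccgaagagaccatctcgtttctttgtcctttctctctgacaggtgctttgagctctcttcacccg
CAGCTG reads the same on both strands. It occurs in Ckm from 226 to 221 and from 75 to 70 bases before the start, in Mylpf from 155 to 150 and in Tpm3 from 173 to 168. TATAA lies from 6 to 2 bases before the annotated start in Ckm, from 43 to 39 in Mylpf, from 40 to 36 in Ankrd2 and from 30 to 26 in Tnnt1. Neither was found in Vgll2 or Tnni1.

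Of the 150 genes with a probeset called above every other organ, described next, 127 had an upstream sequence in this collection. CAGCTG was present in 31 of them (24.4%), against 12.8% of 11733 genes with a probeset on the array and 11.9% of all 27457 upstream sequences. The motif of the MEF2 factors, searched on both strands and able to overlap TATAA, was present in 14 (11%), against 1.61% of the genes on the array and 3.07% of all. TATAA on either strand was found in 17.3%, 15.1% and 24.1% of the same sets, and the E-box CACGTG in 6.3%, 7.82% and 5.79%. The CArG box, searched by its general pattern, was in none of the 127 and in 1.24% of the genes on the array. These shares describe letters in a window and are not counts of bound sites.

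Against the mean of the 29 other organs, 2618 probesets were higher in the muscles (8.43% of 31042) and 1935 were lower (6.23%). A probeset was called where the adjusted p of limma was under 0.05, the difference was over 2-fold and the mean exceeded the expression threshold of the methods in the muscles or in the other organs. A stricter comparison asked that the muscles lie more than 2-fold above the highest organ. It was met by 229 probesets (0.738%). The median over all probesets was -0.05 for the difference to the mean of the other organs and -1.94 for the difference to the highest of them. In 160 probesets (0.515%) with a muscle mean over the threshold, no array of another organ reached the lowest of the 14 muscle arrays. Only 1 probeset (0.00322%) was more than 2-fold below the lowest organ with that organ above the threshold.

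The heart, the other striated muscle of the series, was the runner-up in 87 of the 229 probesets above the highest organ (38%). The skin was the runner-up in 67 (29.3%), the thyroid in 17 (7.42%) and the testes in 9 (3.93%). Over all probesets the heart was the highest of the other organs in 4.23%, the skin in 1.98%, the thyroid in 1.31% and the testes in 11.2%. Without the heart among the other organs, 416 probesets were above the highest of the remaining 28, which is more than 1.5 times as many. Leaving out the skin and thyroid gave 264, and leaving out all 3 gave 464, and each of these counts held all 229. Without the skin and thyroid, Mylpf stood 9.58 above the highest other organ. Leaving out any 1 muscle array gave between 225 and 234 probesets. Leaving out those 3 male arrays and bone marrow female 2 gave 230.

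**Figure D2:**
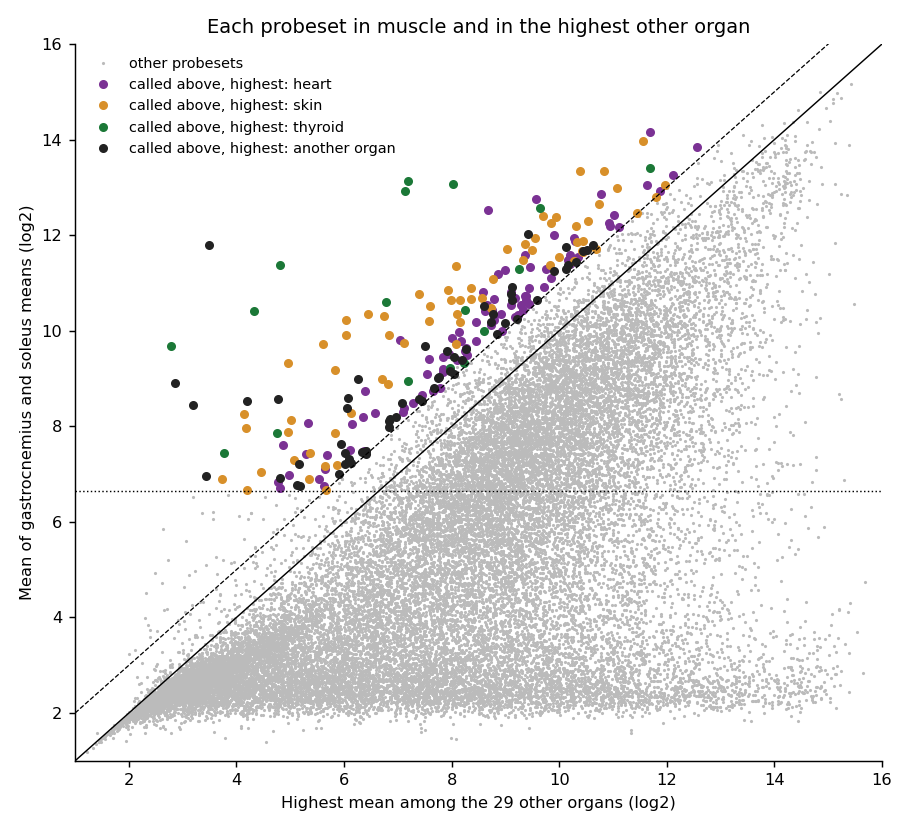
Mean of the gastrocnemius and soleus means (vertical axis, log2) against the highest mean among the 29 other organs (horizontal axis, log2), 1 point for each of 31042 probesets. The solid line marks equality, the dashed line a 2-fold excess and the dotted line the expression threshold; the 229 called probesets are coloured by the organ that came next, heart for 87 and skin for 67.

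The 12 genes with the largest fitted difference to the highest organ are named here. For 10 of them that organ averaged under the expression threshold, so the size and order of those differences depend on how low values were set. For the first 4 of these the difference is also given with the organ raised to the threshold, as a lower bound added after the values were seen. Ankrd2 encodes an ankyrin-repeat protein that sits in the sarcomere and responds to stretch. Its probeset read 9.18, 10.20 and 11.53 (lowest, median, highest) in the gastrocnemius and 12.73, 13.27 and 13.57 in the soleus. The highest of all 242 other arrays read 4.78, and the highest organ, the testes, averaged 3.48. All muscle arrays thus lay above all others, with a fitted difference of 8.31 ± 0.17 to the testes (limma, adjusted p = 3.46e-116) and of at least 5.14 with the testes raised to the threshold.

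Mettl21c encodes a protein methyltransferase of muscle. It averaged 8.57 ± 0.61 (SD, n = 6) in the gastrocnemius and 10.79 ± 0.74 (n = 8) in the soleus, 6.90 ± 0.09 above the thyroid and 3.03 above the threshold. The SE and adjusted p of differences to other organs rest on a spread pooled over all 31 organs. They do not measure the spread among the muscle arrays, which can be wider. Vgll2, a cofactor of TEAD transcription factors in muscle, averaged 9.81 ± 0.29 and 11.04 ± 0.38 and stood 6.11 ± 0.13 above the thyroid and 3.77 above the threshold. One probeset of Tpm3, the slow tropomyosin gene, stood 6.56 ± 0.18 above the thyroid and 4.72 above the threshold. Slow troponin T (Tnnt1) and slow troponin I (Tnni1) were 5.94 ± 0.20 and 5.80 ± 0.21 above the thyroid, which averaged 7.19 and 7.13 for them, over the threshold. Myh3, the myosin heavy chain of embryonic muscle, stood 5.25 ± 0.15 above the pancreas. It read 9.86 to 10.90 in the soleus arrays but 3.53 to 7.92 in the gastrocnemius arrays, whose mean was under the threshold.

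For the other 5 genes the highest organ was the skin. One probeset of Neb, the giant ruler protein of the thin filament, stood 4.36 ± 0.18 above it. Chrnb1, a subunit of the acetylcholine receptor that receives the signal of the motor nerve, stood 4.11 ± 0.13 above it. Art1, an ADP-ribosyltransferase of the cell surface, and Trdn, which ties the calcium release channel to its store, both stood 3.89 above it (SE 0.23 and 0.17). The predicted gene 2310002L09Rikl stood 4.13 ± 0.22 above it. Probesets of 1 gene did not always give the same picture, since another Trdn probeset was 2.00 below the heart and another Neb probeset averaged 2.31 in the muscles. The Neb probeset highest in the muscles averaged 13.04 there and 11.96 in the skin, a difference of 1.08. That of Trdn averaged 12.99 and 11.07, a difference of 1.92. For all 12 named probesets the adjusted p against the highest organ was at most 3.95e-37.

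Of the 7 measured fast genes of the thick filament, 6 were higher than the mean of the other organs and 2 were above the highest organ. Of the 4 slow genes, all were higher than the mean and 2 were above the highest. The medians against the mean of the others were 7.28 and 10.27. Myh2, the heavy chain of fast oxidative fibres, stood 1.71 ± 0.27 above the thyroid, and Mylk2, the kinase of the regulatory light chain, stood 1.53 ± 0.17 above the bone marrow. Myh4, the heavy chain of the fastest fibres, was 2.48 ± 0.37 below the skin. Myh7, the slow heavy chain that the heart also uses, stood 2.47 ± 0.20 above the heart.

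Myh7 read 12.36, 13.24 and 13.99 in the gastrocnemius and 14.83, 15.06 and 15.21 in the soleus. The heart arrays read 11.50 to 11.99 and the skin arrays 2.29 to 3.01, while the thyroid spread from 6.22 to 10.62. No heart, skin or thyroid array reached the lowest muscle array, and the soleus arrays lay above all gastrocnemius arrays. Mybpc1, slow myosin-binding protein C, stood 2.98 ± 0.25 above the skin. The light chains Myl2 and Myl3, shared with the ventricle, were not above the heart, and Myl3 differed from it by -0.47 ± 0.26. The 5 probesets annotated to Myh1 were high across organs and highest in the adrenal or brain, and none of them was above the highest organ. The myosin heavy chain genes are close relatives, and whether their probes share signal was not tested.

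In the thin filament, all 4 fast genes (Tnnc2, Tnnt3, Tnni2 and Tpm1) were higher than the mean of the other organs, by a median of 8.95, and none was above the highest organ, which was the skin for 3 and the heart for 1. Tnnt1 and Tnni1 of the slow set were above all other organs. Slow troponin C, Tnnc1, is shared with the heart and differed from it by -0.43 ± 0.37. The Tpm3 probeset with the highest mean over the organs was 1.53 lower in the muscles than in the other organs, whereas 1 other of its 12 probesets was above all of them. Of the 7 remaining thin filament genes, 6 were higher and 3 were above the highest, namely Lmod3 and Tmod4, which regulate filament length, and Neb.

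Between the filaments, all 20 measured genes of the Z disc, M line and titin were higher in the muscles than the mean of the other organs. Their median was 8.13, and 6 were above the highest organ. Besides Ankrd2 these were Myot and Myoz3, Z-disc partners of actinin, 2.42 ± 0.18 and 2.24 ± 0.18 above the skin, and Mypn, Tcap and Xirp1, between 1.19 and 1.35 above the heart. Titin (Ttn) and desmin (Des) differed by 0.68 ± 0.30 from the heart and by -0.29 ± 0.37 from the bladder. The heart was the highest other organ for 12 of the 20.

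**Figure D3:**
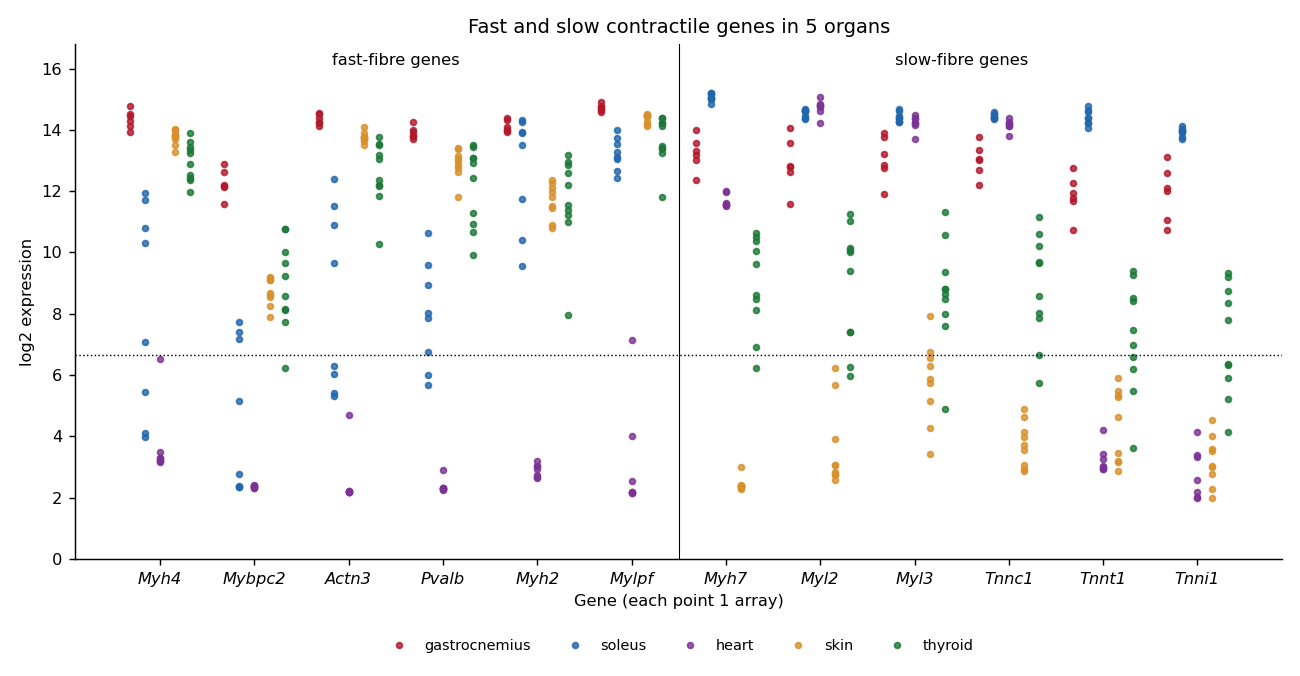
log2 expression of 6 fast-fibre and 6 slow-fibre genes in the arrays of 5 organs, 1 point for each array; the dotted line is the expression threshold. Skin medians are within 1 unit of the gastrocnemius for Mylpf, Myh4, Actn3 and Pvalb but not for Mybpc2 (8.68 against 12.19) or Myh2 (11.81 against 14.04), the slow genes Myl2, Myl3 and Tnnc1 are high in the heart, and the 8 soleus arrays spread from 3.98 to 11.95 for Myh4.

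The skin and the thyroid held fast genes at higher values than slow ones relative to the muscles. For Myh4 the skin arrays read 13.28 to 14.02 and the thyroid arrays 11.96 to 13.90, against 13.93 to 14.79 in the gastrocnemius. The skin overlapped the gastrocnemius, and all thyroid arrays were below it. For Tnnt1 the skin arrays read 2.88 to 5.90 and the thyroid arrays 3.63 to 9.39, against 10.74 to 12.76 in the gastrocnemius. Actn3, the actinin of fast fibres, and Pvalb, a calcium buffer of fast fibres, were likewise highest outside the labelled muscles in the skin, at 13.76 and 12.89. The muscles stood above the skin by a median of 0.17 for the fast thick filament list and of 9.02 for the slow one, and above the thyroid by 0.30 and 4.96. Over all probesets the medians were 0.10 against the skin and 0.09 against the thyroid. Of the slow list, Mybpc1 stood 2.98 above the skin.

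Excitation-contraction coupling links the voltage at the membrane to the release of calcium. Of its 22 genes, 18 were higher than the mean of the other organs, by a median of 7.19, and 9 were above the highest organ. The 2 farthest above were Jsrp1, a protein of the junction with the reticulum, 2.93 ± 0.21 above the skin, and Cacng1, a subunit of the voltage sensor, 2.69 ± 0.15 above it. The voltage sensor Cacna1s, its adaptor Stac3 and the release channel Ryr1 were 2.31 ± 0.17, 2.38 ± 0.33 and 1.77 ± 0.18 above the skin. At the other end stood Pln, which restrains the calcium pump of the heart, 7.16 ± 0.30 below the heart. The fast pump Atp2a1 was level with the skin, with a difference of -0.01 ± 0.32.

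At the neuromuscular junction, 3 of 10 measured genes were higher than the mean of the other organs, and all 3 were also above the highest organ. All are receptor subunits, and the subunits Chrng and Chrne were not called. Besides Chrnb1 they were Chrna1, 3.53 ± 0.13 above the adipose, and Chrnd, 1.15 ± 0.12 above the testes. The Chrnd call rested on the soleus, since the gastrocnemius mean lay below that of the testes. Musk and Chrng averaged under 3 in both muscles, below the expression threshold. Chrne, the adult receptor subunit, was 8.59 ± 0.22 lower than in the testes.

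Of 19 genes of glycogen and glycolysis, 16 were higher than the mean of the other organs by a list median of 3.91, and 5 were above the highest organ. Phkg1 and Phka1, subunits of phosphorylase kinase, stood 2.29 ± 0.20 above the skin and 1.44 ± 0.23 above the ovary, and Ppp1r3a, which brings a phosphatase to glycogen, 1.88 ± 0.19 above the heart. Gpd1, which makes glycerol phosphate, was lowest in the list against the highest organ, 3.26 ± 0.32 below the aorta. All 5 high-energy phosphate genes were higher than the mean. Ampd1, the muscle AMP deaminase, was the 1 called above the highest organ, and its difference to the skin was 1.01 ± 0.16. That call was lost, with a difference of 0.98 to 1.00, without gastrocnemius male 2, female 1 or female 2 or soleus female 3 or female 4.

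Of 23 genes of oxygen and fatty acid oxidation, 22 were higher than the mean of the other organs, by a list median of 2.64. None was above the highest organ, which was the heart for 6. Cox6a2, the striated muscle subunit of cytochrome oxidase, and myoglobin (Mb) were 0.05 ± 0.44 and 0.25 ± 0.34 below the heart. Carbonic anhydrase 3 (Car3) was 0.20 ± 0.55 below the adipose. The intervals of these differences are wide and do not show that the organs were equal.

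In the dystrophin complex and membrane repair, 11 of 15 genes were higher than the mean (list median 3.28) and 3 were above the highest organ. These were Capn3, the muscle calpain, 3.37 ± 0.18 above the skin, Popdc3, a cAMP-binding membrane protein, 2.13 ± 0.23 above it, and Cav3, caveolin of muscle, 1.07 ± 0.22 above the heart. Utrn, the relative of dystrophin found in many tissues, was 3.36 ± 0.19 below the adipose. For dystrophin itself the muscle means, 5.64 ± 1.18 (SD) in the gastrocnemius and 6.19 ± 0.56 in the soleus, were under the expression threshold.

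Among 14 transcription factors of muscle, 12 were higher than the mean (list median 3.98) and 3 were above the highest organ. Myf6 and Myog, of the MyoD family, stood 2.45 ± 0.20 and 2.23 ± 0.13 above the skin, after Vgll2. Pitx1 read below 2 in both muscles and was 5.59 ± 0.20 lower than in the pituitary. Of 12 growth, fusion and secreted factors, 3 were higher than the mean, Mss51, Fndc5 (the precursor of irisin) and Il15. Mss51 was the 1 above the highest organ, 1.76 ± 0.22 above the thyroid, and that rested on the gastrocnemius, since the soleus alone was 1.51 below the highest organ. In protein turnover, 11 of 12 genes were higher than the mean (list median 6.58). Klhl40 and Klhl41, which stabilise thin filament proteins, and Trim63, a ubiquitin ligase of atrophy, were above the highest organ. The last 2 of these stood 1.92 ± 0.17 above the skin and 1.35 ± 0.21 above the heart.

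**Figure D4:**
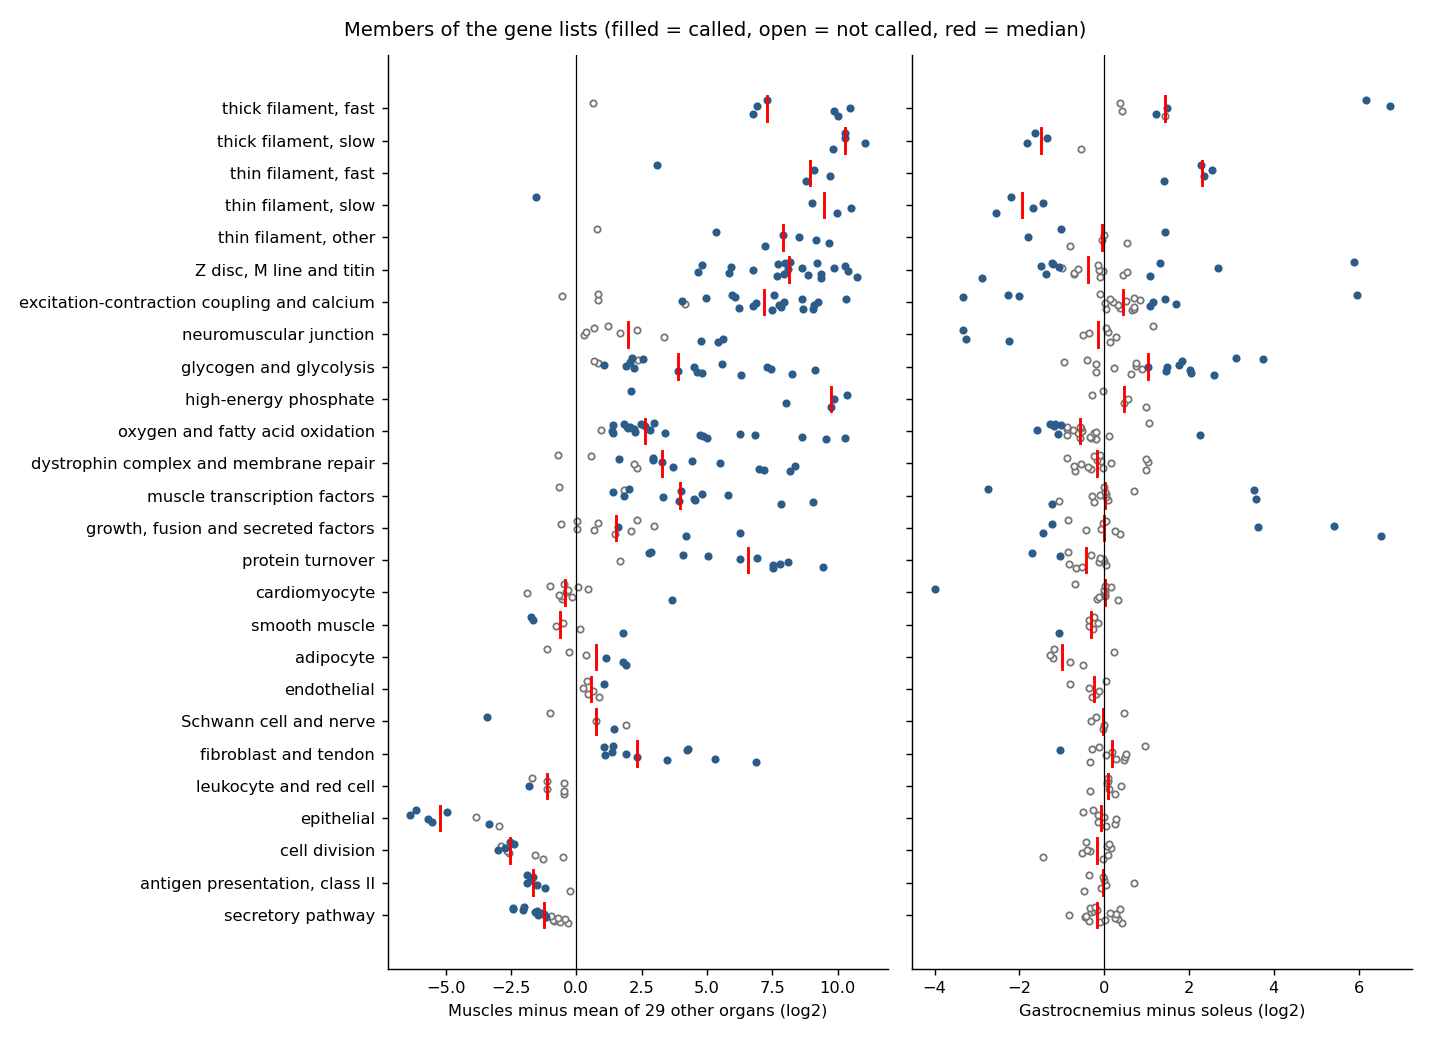
Each point is 1 gene of a list; the left panel gives the muscles minus the mean of the 29 other organs and the right panel the gastrocnemius minus the soleus, both on the log2 scale. Filled points were called, and red bars are list medians, from 10.27 in the slow thick filament to -5.22 in the epithelial list on the left.

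The gastrocnemius and the soleus were compared with each other on their 14 arrays. In the gastrocnemius 383 probesets were higher (1.23% of 31042) and in the soleus 458 (1.48%). The arrays of the 2 muscles did not overlap in 1492 probesets (4.81%). Without 1 array at a time these counts ran from 357 to 424 and from 415 to 530.

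The 8 probesets with the largest fitted difference each way are named. They were picked on these same arrays, so a lack of overlap largely follows from the choice. The lower muscle averaged under the expression threshold for 5 of the 8 higher in the gastrocnemius and 7 of the 8 higher in the soleus, so the size and order of those differences depend on how low values were set. With means under the threshold raised to it, the gastrocnemius minus the soleus was 5.62 for Mybpc2, 4.09 for Gpt2, 3.25 for Tnnt3 and -1.83 for Slc4a3, each a lower bound in size. Mybpc2, fast myosin-binding protein C, read 11.59, 12.19 and 12.90 in the gastrocnemius and 2.35, 3.97 and 7.73 in the soleus. The difference was 7.60 ± 0.99 (SE, limma, adjusted p = 0.000176). Myh4 read 13.93, 14.37 and 14.79 in the gastrocnemius and 3.98, 8.69 and 11.95 in the soleus, a difference of 6.18 ± 1.34 (adjusted p = 0.00816). For neither gene did the muscles overlap, but the soleus arrays were widely spread. Myh4 was at 10.31 to 11.95 in the soleus of male 3 and females 2, 3 and 4 and at 3.98 to 7.07 in that of males 2 and 5 and females 1 and 5.

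The same 4 soleus arrays were the highest in Actn3, at 9.67 to 12.39 against 5.33 to 6.31 in the other 4. They were also the highest in Mybpc2, at 5.16 to 7.73 against 2.35 to 2.77. In Pvalb they read 8.02 to 10.62 and the others 5.68 to 7.87. The soleus arrays thus split in the same way for these 4 fast genes, which were looked at together after their values were seen. Mss51, described below, split in this way too. Myh2 did not split so, with 9.56, 10.40 and 11.75 in female 3, male 2 and female 2 and 13.49 to 14.31 in the other 5 arrays. What sets these arrays apart was not tested.

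Mstn, Gpt2 and 1 probeset of Tnnt3 had no such spread in the soleus, but all their soleus arrays were under the expression threshold, where a split may not show. Mstn, the secreted restraint on muscle growth, read 7.85, 8.18 and 8.68 in the gastrocnemius and 2.36, 2.53 and 3.80 in the soleus, a difference of 5.42 ± 0.26. Gpt2, a mitochondrial alanine transaminase, read 4.16 to 6.09 in the soleus and differed by 5.51 ± 0.32. One probeset of Tnnt3, fast troponin T, differed by 6.72 ± 0.25 and the other by 2.35. The soleus was spread more widely for Mss51, a protein of muscle mitochondria, at 3.75 to 8.02. Soleus male 3 and females 2, 3 and 4 were again the highest, at 5.95 to 8.02 against 3.75 to 4.27. Mss51 differed by 6.53 ± 0.76, Pvalb by 5.97 ± 0.69 and Actn3 by 5.89 ± 1.17.

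Of the genes higher in the soleus, Slc4a3, an anion exchanger, read 8.02, 8.47 and 8.99 there and 1.98, 3.45 and 5.97 in the gastrocnemius, a difference of -4.79 ± 0.56 (adjusted p = 7.37e-05). Rspo3, a secreted enhancer of Wnt signals, read 7.37, 8.33 and 8.62 in the soleus and 2.11, 3.44 and 5.13 in the gastrocnemius. The muscles did not overlap in either gene. Rspo3 was low in the other organs too, with 3.37 in the highest of their 242 arrays. The other genes of this set were Rd3l, LOC102546992, Vtcn1 (an immune checkpoint ligand), Cda (cytidine deaminase), a probeset of Tpm3 and Ablim1 (an actin-binding protein), with differences of -4.56 to -4.07.

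**Figure D5:**
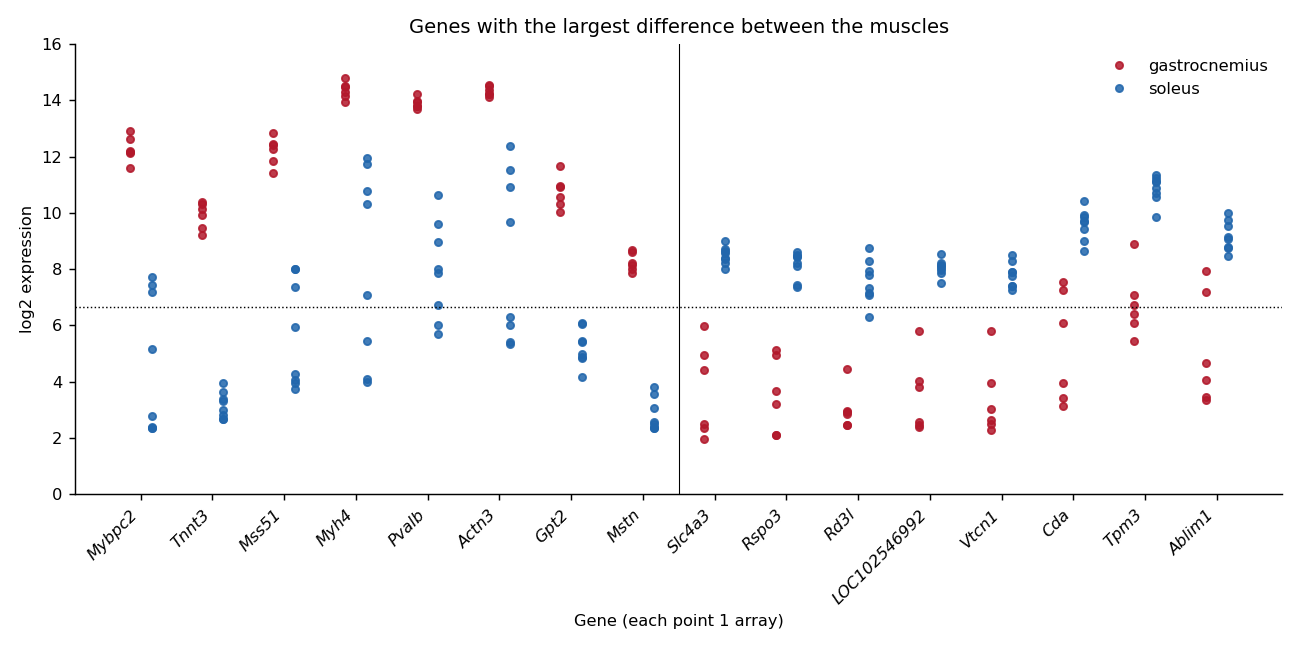
log2 expression in each gastrocnemius array (red, n = 6) and each soleus array (blue, n = 8) for the 8 genes with the largest difference in either direction. The muscles do not overlap in any of the 16 probesets, which were picked by this difference on the same arrays, nor in 4.81% of all probesets. The soleus spreads over the widest range in Myh4, from 3.98 to 11.95, and the gastrocnemius spreads in several genes higher in the soleus.

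Within the lists, fast and slow genes lay apart. All 4 fast thin filament genes were higher in the gastrocnemius (median 2.32) and all 4 slow ones in the soleus (median -1.94). In the thick filament, 4 of 7 fast genes were higher in the gastrocnemius and 3 of 4 slow genes in the soleus. The median over all probesets was 0.01. Of the Z disc and M line genes, 4 were higher in the gastrocnemius (Actn3, Myoz1, Myom2 and Myoz3) and 6 in the soleus, with Ankrd2 at -2.89 ± 0.31 the farthest.

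The calcium genes showed a matching pair of pumps. Atp2a1, the fast pump, read 13.95, 14.32 and 14.51 in the gastrocnemius and 12.65, 12.76 and 13.27 in the soleus (1.42 ± 0.12). For Atp2a2, the pump of slow muscle and heart, the probeset of highest mean read 8.80, 9.20 and 9.99 in the gastrocnemius. In the soleus it read 11.16, 11.24 and 11.45 (-2.02 ± 0.15). Neither pump overlapped between the muscles. That Atp2a2 probeset was highest in the brain (11.93) and differed by -0.53 from the mean of the other organs. Another Atp2a2 probeset was highest in the heart (14.70). It averaged 13.20 in the gastrocnemius and 14.68 in the soleus, a difference of -1.48. Casq1 and Casq2, the calcium stores of fast muscle and of slow muscle and heart, differed by 1.16 and -2.28. Sln, a small inhibitor of the pump, was higher in the soleus by 3.33, with gastrocnemius arrays from 5.91 to 10.83.

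Of the 19 glycogen and glycolysis genes, 10 were higher in the gastrocnemius and none in the soleus, where the nearest was the branching enzyme Gbe1 at -0.96 ± 0.14 (limma). Fbp2, the muscle form of fructose bisphosphatase, differed most, at 3.75 ± 0.21. It was followed by Gpd1 at 3.11 ± 0.18 and Phkg1 at 2.59 ± 0.15. Lactate dehydrogenase A (Ldha) differed by 1.83, and lactate dehydrogenase B (Ldhb), which the oxidation list holds, by -1.58. Of the 23 oxidation genes, 6 were higher in the soleus (Ldhb, Eci1, Lpl, Cd36, Cpt1b and Slc25a20, -1.58 to -1.01) and Ucp3 in the gastrocnemius (2.26).

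Of the 14 transcription factors, 2 were higher in the gastrocnemius and 2 in the soleus (median 0.01), and of the 10 neuromuscular junction genes, none and 3 (median -0.15). Myod1 averaged 8.67 ± 0.41 (SD) in the gastrocnemius and 5.11 ± 0.80 in the soleus, and Sox6, a repressor of slow genes, 8.18 ± 0.61 and 4.65 ± 0.32. Prox1, which favours slow fibres, averaged 6.29 ± 0.63 and 9.05 ± 0.28. None of these 3 genes overlapped between the muscles. Chrnd, Chrna1 and Colq of the neuromuscular junction were higher in the soleus, by 3.27, 2.24 and 3.34. Il15 was higher in the gastrocnemius by 3.62 ± 0.25. Tnnt2, cardiac troponin T, averaged 3.87 ± 0.27 in the gastrocnemius and 7.87 ± 0.73 in the soleus, against 14.62 in the heart.

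The lists of other cell types describe what else the muscle samples held. All 11 fibroblast and tendon genes were higher than the mean of the other organs, by a median of 2.32. Thbs4, a matrix protein of tendon and muscle, was above the highest organ (3.84 ± 0.34 over the thyroid). The mean over this list ran from 10.16 to 11.11 in the gastrocnemius arrays and from 9.93 to 11.02 in the soleus arrays, above the means of all 29 other organs. Gene by gene the muscles were not above the skin, with a median difference of -0.93 to the skin. The median difference to the highest organ of each gene was -1.50, and 1 of the 11 was above it. The part of this list in other results was not tested.

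For cardiomyocytes, 1 of 12 genes was higher (Myl4), beside 8.43% of all probesets, and 1 was over the expression threshold in the muscle mean. Nppa, Nppb, Gata4 and Myl7 of this list read 2.06 to 2.56 on average in either muscle. Other members were not that low, with Tnnt2 at 7.87 and 1 probeset of Myh6 at 5.39 on average in the soleus. Gata4 was highest in the duodenum (9.87), not in the heart. Of 6 adipocyte genes, 3 were higher (Fabp4, Cfd and Adipoq). Their list mean ran from 5.38 to 8.26 in the gastrocnemius and from 6.71 to 7.82 in the soleus, against 13.19 in the adipose. For the 5 genes of Schwann cells and nerve it ran from 5.44 to 8.08 and from 6.17 to 7.43, and for the 6 of smooth muscle from 7.49 to 9.60 and from 8.28 to 9.07. Gastrocnemius male 2 was the highest array in all 3 lists, and without it the gastrocnemius ran from 7.49 to 8.35 for smooth muscle. The 6 endothelial genes had 1 higher (Vwf), and their mean ran from 7.34 to 8.30 and from 7.79 to 8.16.

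The genes lowest in muscle against the mean of the other organs came from epithelia. Epcam, an adhesion protein of epithelial cells, read 2.82, 3.10 and 3.36 in the gastrocnemius and 2.57, 2.83 and 5.41 in the soleus, against a mean of 9.50 in the other organs (-6.35 ± 0.28). Ezr, which ties the membrane to actin in microvilli, differed by -6.16 ± 0.13, the keratins Krt8 and Krt18 by -6.14 ± 0.23 and -5.69 ± 0.22, and the cadherin Cdh1 by -5.50 ± 0.17. Dsg2, Rbm47 and Spint2 differed by -5.20 to -5.05. Of 8 epithelial genes, 6 were lower (median -5.22) and none was over the threshold in the muscle mean.

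Of 17 genes of the secretory pathway, 10 were lower and 0 higher (median -1.22), led by the translocon genes Sec61a1 and Sec61b, both at -2.43. Of 10 cell division genes, 4 were lower (median -2.55), and these were Cdk1, Top2a, Mki67 and Ccna2. Of 7 leukocyte and red cell genes, 1 was lower (Ptprc, -1.82), beside 6.23% of all probesets. Of the 7 class II antigen presentation genes, 6 were lower (median -1.65). RT1-Bb among them was at -1.89 and lost its call without gastrocnemius female 1 or female 5 or soleus female 1 or female 5, when it was at -1.56 to -1.44 (adjusted p = 0.0871 to 0.127, limma). The 1 probeset below the lowest organ was Prpsap1, a subunit linked to nucleotide synthesis, and it was not called once array medians were made equal, or without gastrocnemius male 3, soleus male 2 or soleus female 4.

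Males and females were compared within each muscle with limma at the thresholds of the methods. In the gastrocnemius 1 probeset was higher in males (0.00322%) and 4 in females (0.0129%), and in the soleus 1 (0.00322%) and 1 (0.00322%). All 7 calls were probesets of Eif2s3y, a gene of the Y chromosome, or Xist, the RNA that silences 1 X chromosome. Eif2s3y was higher in males by 6.86 ± 0.23 (SE) in the gastrocnemius and by 6.59 ± 0.30 in the soleus. The methods' t-test with Benjamini-Hochberg adjustment at the same thresholds called 0 probesets in the gastrocnemius and 1 in the soleus. These counts rest on 2 and 3 male arrays. In the gastrocnemius 2 probesets were called without female 5 and 0 without female 1 or female 2, and in the soleus 4 without female 4 and 1 without any of the other arrays. Leaving out either gastrocnemius male leaves 1 male array, so those counts are not read as results. They enter only the range over left-out arrays given with the processing below. At an unadjusted p under 0.05 there were 1279 and 1422 probesets, of 31042 tested in each muscle.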

How the data were processed

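Organs of untreated rats were hybridised to RAE230_2 arrays, 1 organ of 1 animal each. The authors deposited log2 expression values made with GCRMA. The sources used here give neither its version nor which arrays were normalised together. Fits used limma 3.58.1 in R 4.3.3 (statmod 1.5.0) on these values with Benjamini-Hochberg adjustment over 31042 probesets, and Python 3.11.15 with matplotlib 3.10.9 drew the figures. The muscle mean was the mean of both muscle means. Against other organs, each probeset had 1 spread between arrays within organs, pooled over all 31 organs. The test against the highest organ took the largest of 29 one-sided p-values. Calls needed an adjusted p under 0.05, over 2-fold and a mean over the expression threshold of the methods. Symbols came from the platform annotation (20826 probesets with 1 symbol, 436 with several, 9780 with none) and a gene was read from its probeset of highest mean. Sex and replicate number mark the animal, and deviations of its muscles from the group means correlated at 0.13 to 0.48 in all 6 pairs. Named genes were the 2 markers, the 12 farthest above the highest organ, the 8 most different each way between muscles, the 8 lowest, Eif2s3y and Xist, and list members, of which those with the 2 largest and the smallest difference to the highest organ came first. Members and lists were chosen with earlier results of these data known. Alternatives covered normalisation, thresholds, weights, sexes, animals and left-out arrays or organs. Those without the skin and thyroid were added after seeing the data. The number of arrays, 6 and 8, limits precision.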

Additional observations from a re-analysis of the deposited data

Results flagged for a closer look

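Among 216 checks of the named probesets for 1 array far from the rest of its muscle, 17 stood apart (8 of 108 in the gastrocnemius and 9 of 108 in the soleus). Chance alone would mark about 1 in 20 such groups. In the soleus, female 2 was far above the other arrays in the epithelial genes Epcam (5.41, next 3.85) and Krt8 (4.76, next 2.10), and female 4 in Dsg2 (4.56). Krt18 was lowest in soleus female 3 (2.34, next 2.39). Every soleus array was under the expression threshold for Epcam, Krt8, Dsg2 and Krt18. Soleus male 2 was the lowest in the fast genes Tnnt3 (9.79, next 11.75) and Tpm1 (10.48, next 12.41). Soleus female 4 was the highest in Tnni1 (14.12), Tpm2 (11.80) and Myot (14.24).

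In the gastrocnemius, female 3 was the highest in Rd3l (4.44, next 2.96), Krt18 (3.65) and the smooth muscle gene Smtn (9.32). Male 2 was the highest in the smooth muscle gene Cnn1 (7.39, next 5.52) and the endothelial gene Cldn5 (8.46). Female 2 was the lowest in Krt8 (1.96, next 2.09) and the highest in the B-cell gene Cd79b (2.66, next 2.30), and female 5 was the lowest in Acvr2b (5.65). Every gastrocnemius array was under the expression threshold for Rd3l, Krt18, Krt8 and Cd79b.

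The difference between males and females was itself different in the 2 muscles for 4 of 31042 probesets (limma interaction, adjusted p under 0.05; 777 at an unadjusted p under 0.05). Fosb, an immediate early gene, averaged 4.89 in males and 2.92 in females in the gastrocnemius and 2.96 and 2.99 in the soleus, a difference of -2.01 between the muscles (soleus minus gastrocnemius, adjusted p = 3.44e-05). The others were Agmo (-1.30, adjusted p = 0.0397), Slc17a7 (-0.70, adjusted p = 0.0268) and a probeset with no symbol (-0.93, adjusted p = 0.00166). None of the 4 exceeded 4.92 in any muscle array, below the expression threshold, and the gastrocnemius has 2 male arrays.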

How the results depend on the processing

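The counts against the other organs are 2618 higher, 1935 lower, 229 above the highest and 1 below the lowest. With the replicate block by animal they were 2612, 1934, 229 and 1. Between the muscles the animal was instead a fixed term of the fit, so only the 6 animals with both muscles inform the difference. That fit gave 383 probesets higher in the gastrocnemius and 477 in the soleus, where it was 383 and 458 without the term. The differences of Tpm2 (-0.97) and of Ampd1 and Cox7a1 (both 1.03) then lay on the other side of the call. Without 1 array the counts ran over 2589 to 2654, 1882 to 2004, 225 to 234 and 0 to 2, and over 357 to 424 and 415 to 530 between the muscles.
The count below the lowest organ was 0 after quantile normalisation, with equal array medians, over 4-fold and without the 4 arrays whose sex genes were at odds with their labels, 10 with no expression threshold, 3 in males, 6 in females, 7 for the gastrocnemius alone, 26 without the heart, 33 against the second lowest organ, 2 without skin and thyroid and 28 without heart, skin and thyroid. With over 4-fold, 1203 were higher, 575 lower and 87 above the highest, and with no expression threshold 4376 were lower. The count above the highest was 416 without the heart, 556 against the second highest organ and 464 without heart, skin and thyroid. Equal array medians moved the median of all probesets from -0.05 to 0.11, with 3001 higher and 1617 lower. Between the muscles, no expression threshold gave 592 higher in the gastrocnemius, and over 1.5-fold gave 754 there and 973 in the soleus.
For the sexes, the methods' t-test called 0 in the gastrocnemius (974 at an unadjusted p under 0.05, and 1279 with limma, which called 5) and 1 in the soleus. The soleus had 6 with no expression threshold, and 4 were called with both muscles in 1 fit and a replicate block. The gastrocnemius range that follows takes in fits that leave 1 male array, and its upper end comes from such a fit. Without 1 array the ranges were 0 to 12 and 1 to 4.
Against the highest organ, these signs turned: without the heart or against the second highest, Myl2 4.84 and Cox6a2 1.76; gastrocnemius alone, Mybpc2 3.35, Pvalb 1.02 and Mstn 1.23; soleus alone, Mss51 -1.51 and Ablim1 1.67, and Gpt2 -1.41 against the mean. Without skin and thyroid, and also without the heart, Mylpf was at 9.58, Mybpc2 at 1.46, Myh4 at 6.78, Actn3 at 6.16 and Tnnt3 at 7.73, and without all 3 organs Myl2 was at 10.23 and Cox6a2 at 6.60. Of the other values of single genes, 9110 kept their direction and side of the threshold, 88 became called and 106 lost the call. The causes of these changes were not tested.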

Other observations

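RT1-Bb, a class II antigen presentation gene, divided the muscle arrays by animal. Both muscles of female 1 (2.62 and 2.37 in the gastrocnemius and soleus) and of female 5 (2.57 and 2.86) were low, and every other muscle array read at least 7.89. Adrenal, bone marrow, pituitary and ovary samples carry other sample numbers than the remaining organs in the study's supplement, so they are given apart, and testes are left out. Over the remaining organs, female 1 had a median of 3.33 over 21 arrays (highest 5.84), with 15 under 4. Female 5 had a median of 3.46 over 22 arrays (highest 9.72), with 13 under 4. The medians of the other 8 animals ran from 9.25 to 11.53, with at most 1 array under 4 each. In the organs given apart, arrays numbered female 1 read 4.48 to 4.96 (n = 3) and arrays numbered female 5 read 4.16 to 9.55 (n = 4), and none was under 4. This pattern was noticed in the data and was not tested.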
